A study of Mus musculus with 13 samples.

Results

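The 3 untreated DRIP-seq libraries whose sample titles read siEXOSC3 were set against the 6 other untreated libraries of the series, 3 titled siScramble and 3 titled siDDX1. Peaks of the 9 lists were merged into 69497 regions that covered 76.6 Mb of the mouse genome (build mm9). Of these, 1155 (1.66%) were called in at least 2 of the 3 siEXOSC3 libraries and in 0 of the 6 others, and 611 (0.879%) were called in 0 of the 3 siEXOSC3 libraries but in 2 or 3 libraries of siScramble and of siDDX1 alike. These sets are named the siEXOSC3-only and the siEXOSC3-absent regions below. They were fixed by the calls themselves, so their sizes and their annotation are given as descriptions, without a test.

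All samples came from N2a cells, a mouse neuroblastoma line. By title and genotype field, the groups were transfected with scramble siRNA (genotype WT), siRNA against DDX1 (DDX1 knockdown) or siRNA against EXOSC3 (EXOSC3 knockdown), and the DNA of these 9 libraries was not digested with RNase H, an enzyme that degrades RNA paired with DNA, before the pull-down. For a further library per label it was, and 1 input sample was not analysed here. The question addressed is where R-loops are gained or lost upon depletion of EXOSC3. According to the study's methods, the replicates of a label were separate plates, knockdown was transient, and the time from transfection to harvest is not given in the sources used here.

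The labels allow 2 readings. The deposited file names and peak names carry a treatment that is not the one in the title, in 12 of 12 lists, and the shift follows 1 pattern. Lists titled siEXOSC3 hold peaks named siScramble, lists titled siScramble hold peaks named siDDX1, and lists titled siDDX1 hold peaks named siEXOSC3. Read by title, siEXOSC3-only regions were called upon EXOSC3 depletion and not in the control or upon DDX1 depletion. Read by peak name, the same regions were called in the scramble control and in neither depletion, and siEXOSC3-absent regions were called in both depletions and not in the control. Every value below compares the same 3 libraries with the same 6 under either reading. Libraries are named by title throughout.

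R-loops are structures in which RNA pairs with its template DNA strand and leaves the other strand single. They form behind RNA polymerase, are frequent at GC-rich promoters and at transcript ends, and are favoured where the displaced strand is rich in guanine. DRIP-seq captures them with the S9.6 antibody from DNA cut with restriction enzymes, so the length of a captured piece is set by the cut sites. EXOSC3 is a cap subunit of the RNA exosome, the ribonuclease complex that trims and degrades nuclear RNA, including RNA made upstream of promoters and at enhancers. DDX1 is a DEAD-box RNA helicase.

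To show the kind of DNA behind both sets, the 200 bases around the peak summit are printed for the first 3 regions of each ranking, from build mm9, plus strand. Capitals mark runs of at least 4 G or 4 C, and all other bases are in lower case. The siEXOSC3-only regions lie at Gm20388 (chr8:126080938-126081137, GC 53%), in Rfxank (chr8:72659823-72660022, GC 43%) and at Jup (chr11:100257605-100257804, GC 54%). The siEXOSC3-absent regions lie in Ranbp2 (chr10:57943447-57943646, GC 33.5%), in Fgfr2 (chr7:137687731-137687930, GC 47.5%) and in Agap1 (chr1:91705731-91705930, GC 41.5%). The Jup window held 6 runs of G and 1 run of C, whereas the Ranbp2 window held none of either. These were the extremes: the Rfxank and Agap1 windows each held 1 run of C, and the Fgfr2 window held 1 of each. The Gm20388 window is largely a repeat of ct and ca units with 1 run of G.
Gm20388: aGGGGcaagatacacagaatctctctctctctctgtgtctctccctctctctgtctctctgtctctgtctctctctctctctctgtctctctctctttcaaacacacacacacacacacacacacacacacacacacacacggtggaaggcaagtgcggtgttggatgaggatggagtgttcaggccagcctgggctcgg
Rfxank: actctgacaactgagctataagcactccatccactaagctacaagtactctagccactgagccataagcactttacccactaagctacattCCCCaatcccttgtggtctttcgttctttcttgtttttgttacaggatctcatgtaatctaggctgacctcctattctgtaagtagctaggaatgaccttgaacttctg
Jup: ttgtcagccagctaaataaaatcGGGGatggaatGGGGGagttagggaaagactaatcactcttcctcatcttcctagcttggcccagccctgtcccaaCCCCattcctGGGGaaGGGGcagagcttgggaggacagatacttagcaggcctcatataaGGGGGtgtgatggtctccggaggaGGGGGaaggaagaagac
Ranbp2: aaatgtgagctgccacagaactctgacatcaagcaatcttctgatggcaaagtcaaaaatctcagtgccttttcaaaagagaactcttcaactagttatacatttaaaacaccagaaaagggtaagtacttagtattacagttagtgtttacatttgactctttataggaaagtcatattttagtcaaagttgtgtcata
Fgfr2: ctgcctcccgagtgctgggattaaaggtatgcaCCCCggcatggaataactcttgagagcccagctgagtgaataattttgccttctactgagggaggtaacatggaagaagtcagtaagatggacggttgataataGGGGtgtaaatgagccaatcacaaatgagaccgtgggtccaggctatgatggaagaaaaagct
Agap1: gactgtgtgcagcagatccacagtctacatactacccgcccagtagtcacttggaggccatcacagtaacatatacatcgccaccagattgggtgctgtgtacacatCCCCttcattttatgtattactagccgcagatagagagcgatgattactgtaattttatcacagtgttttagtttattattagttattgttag

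Peak numbers did not set the siEXOSC3 libraries apart. They held 27391, 30482 and 42571 peaks, against 23882, 37512 and 42170 for siScramble and 40136, 24167 and 30338 for siDDX1. The means were 33481 and 33034 peaks (exact permutation test of 3 against 6 libraries, two-sided, p = 0.905). Relative depth, recovered from the fold enrichment and p-value of each peak, was 0.879, 0.916 and 0.799 in the siEXOSC3 libraries and 0.785 to 1.86 in the others, with siDDX1 replicate 1 the deepest. Left peak edges lay on a restriction cut in 29.6% to 35.6% of peaks per library, against 0.0837% to 0.141% for the same edges moved by 300 bases. Among markers, Phox2a, Hand2 and Tubb3, genes of the sympathoadrenal and neuronal lineage, had a peak within 1 kb of a start in 9 of 9 libraries, Gata3, Th and Dbh had one in 0, and the blood, epithelium, liver and fibroblast markers had one in 0. The muscle gene Myh3 had one in 9 of 9, and the glial gene Gfap had one in the 3 siEXOSC3 libraries and in siScramble replicate 3. Of the 16 neuroblastoma markers, 7, 5 and 6 had such a peak in the siEXOSC3 libraries and 3 to 5 in the others. A DRIP peak does not measure RNA, so depletion could not be checked. Exosc3 itself held 0, 1 and 1 peaks in the siEXOSC3 libraries and 0 to 1 in the others, and Ddx1 held 3, 5 and 5 against 3 to 6.

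The siEXOSC3-only regions were richer in promoters and in GC than the other regions. Of 1155 regions, 332 (28.7%) had their midpoint within 1 kb of an annotated transcription start, 116 (10.0%) lay in an exon, 540 (46.8%) in an intron and 167 (14.5%) between genes. Of all 69497 regions, 18.3% lay near a start and 57.9% in an intron. Regions called in 2 or 3 of 9 libraries, which are called about as rarely as the members, lay near a start in 16.5% and in an intron in 60.2%. The median GC content of the siEXOSC3-only regions was 51.2%, against 47.6% over all regions. Their median distance to a start was 3.27 kb, against 6.09 kb, and their median width was 541 bases, against 517 bases.

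The siEXOSC3-absent regions stood at the other end of the same scale. Of 611 regions, 59 (9.66%) lay near a start, 50 (8.18%) in an exon, 446 (73.0%) in an intron and 56 (9.17%) between genes. Their median GC content was 44.6%, and their median distance to a start was 8.62 kb. The protein-coding genes that held them had a median length of 66.4 kb, against 40.2 kb for the siEXOSC3-only regions and 51.5 kb over all regions. They were wide, with a median of 1151 bases, close to the 1115 bases of regions called in 4 to 6 of 9 libraries, which are called about as often. Those lay near a start in 20.5% and had a median GC content of 47.8%.

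Applying the same rules to the other labels gave sets with the opposite lean. The 1349 siScramble-only regions (1.94%) lay near a start in 12.9% and the 740 siDDX1-only regions (1.06%) in 14.1%, and their median GC content was 45.5% and 46.4%. The 309 siScramble-absent regions (0.445%) lay near a start in 25.2% and the 454 siDDX1-absent regions (0.653%) in 24.9%, with a median GC content of 50.7% and 49.8%. These sets were made from the same 9 libraries, so a region missed by 1 label is by construction called in the others, and they are not independent of the siEXOSC3 sets. The bars of annotation by set show the order of these shares.

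**Figure D1:**
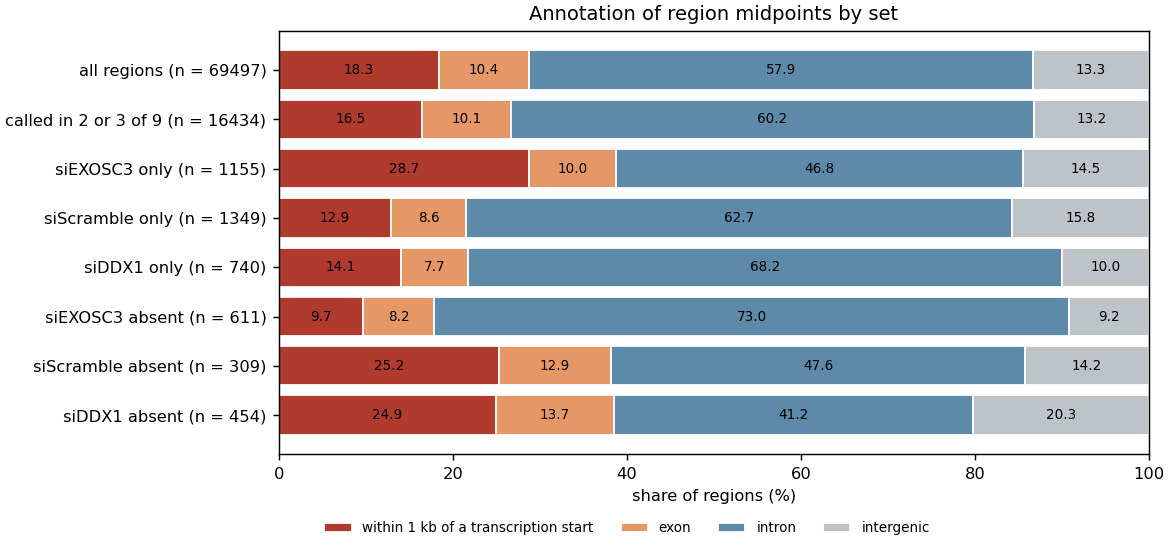
Share of regions (percent, x axis) whose midpoint lies within 1 kb of a transcription start, in an exon, in an intron or between genes, for all regions and for each set (y axis, number of regions in brackets). The siEXOSC3-only bar has the largest share near a start (28.7%) and the siEXOSC3-absent bar the smallest (9.7%) among the sets drawn.

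GC content was high among the siEXOSC3-only regions within annotation classes as well. Those near a start had a median GC content of 55.1%, against 52.4% for all regions near a start, 46.9% for siScramble-only and 49.1% for siDDX1-only regions near a start. The intronic ones had 49.7%, against 46.4% for all intronic regions. Among siEXOSC3-absent regions the medians were 47.6% near a start and 44.3% in introns. The CpG content of siEXOSC3-only regions near a start, as observed over expected, was 0.439 at the median, against 0.386 for all regions near a start. A run of GGGG or CCCC, searched as these letters so that either strand counts, was present around the summit in 75.2% of siEXOSC3-only regions, 66.6% of siEXOSC3-absent regions and 67% of all regions. Near a start, 277 of 332 siEXOSC3-only regions (83.4%) held such a run, against 74.3% of all regions near a start.

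When each list was trimmed to the same length, the lean was the same while the membership moved. The 23882 peaks with the highest −log10 q of each list gave 46035 regions, of which 957 (2.08%) were siEXOSC3-only and 486 (1.06%) were siEXOSC3-absent. Of the siEXOSC3-only regions, 32.7% lay near a start and 41.8% in an intron, and of the siEXOSC3-absent ones, 8.23% and 70.8%. The siScramble-only and siDDX1-only sets lay near a start in 10.7% and 11.7%. Only 411 siEXOSC3-only regions overlapped between both settings, 35.6% of the set from all peaks and 42.9% of the set from equal numbers. For siEXOSC3-absent regions the overlap was 188, which is 30.8% and 38.7%. Most members of each set were therefore members in 1 setting only.

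Most siEXOSC3-only regions were called in 2 libraries and by weak peaks. Of the 1155 siEXOSC3-only regions, 456 were called in replicates 2 and 3, 372 in 1 and 3, 191 in 1 and 2, and 136 (0.196% of all regions) in all 3. Of the siEXOSC3-absent regions, 44 (0.0633% of all regions) were called in 6 of 6 other libraries. siScramble replicate 1 called 214 of the 611 siEXOSC3-absent regions, and the other 5 libraries called 317 to 575. The summit pileup, the number of fragments stacked at the highest point of a peak, had a median of 7, 7 and 8 fragments over the siEXOSC3-only regions in the 3 libraries, against 9, 9 and 10 over all regions called in these libraries. The siEXOSC3-absent regions had medians of 7 to 12 fragments in the 6 libraries, against 9 to 12 over all regions. Their median percentile of −log10 q was 48.8 to 50.6 in siScramble replicates 2 and 3 and siDDX1 replicate 1, and 34.0 to 39.7 in the other 3. A region that is not called in a library can still hold reads there, and this was not measured. The counts moved with single libraries: without siEXOSC3 replicate 1, 2 or 3 the siEXOSC3-only regions numbered 592, 508 and 327. The siEXOSC3-absent regions numbered 1655 without siEXOSC3 replicate 3, 178 and 164 without siScramble replicate 2 and 3, and 189 and 268 without siDDX1 replicate 1 and 3.

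Regions next to the thresholds differed in their lean. The 1433 regions called in at least 2 of 3 siEXOSC3 libraries and in 1 of 6 others lay near a start in 27.2%. The 10650 regions called in 1 of 3 and in 0 of 6 lay near a start in 17.2%, below the 18.3% of all regions. On the other side, the 1499 regions called in 1 of 3 and in at least 2 of each other label lay near a start in 13.7% and in an intron in 62.2%. As for distance to other peaks, 626 of 1155 siEXOSC3-only regions (54.2%) lay within 1 kb of a peak of the 6 other libraries and 961 (83.2%) within 5 kb. Of the siEXOSC3-absent regions, 262 (42.9%) lay within 1 kb of a siEXOSC3 peak and 475 (77.7%) within 5 kb. Peaks of the RNase H-digested libraries overlapped 37 siEXOSC3-only regions (3.20%) and 21 siEXOSC3-absent regions (3.44%), against 3.16% of all regions.

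The strongest siEXOSC3-only regions were ranked by the lowest percentile of their −log10 q over the 3 libraries. DRIP peaks carry no strand, so genes that overlap a region cannot be told apart. The first was a region at a start of Gm20388 (chr8:126080891-126081176), an annotated locus of 4435 kb, with summit pileups of 9, 12 and 17 fragments in replicates 1, 2 and 3. An intronic region of Rfxank (chr8:72658708-72660081), a subunit of the complex that drives class II antigen presentation genes, had 9, 9 and 11. The region at Jup (chr11:100257257-100259827), which encodes the junction protein plakoglobin, had 10, 9 and 14. In all of these, replicate 3 had the highest pileup. A region beside Lin28a (chr4:133575495-133576175, 0.738 kb from the gene), whose product blocks maturation of the let-7 microRNA, had 9, 8 and 12 fragments. Pax6, a transcription factor of eye and brain development, had one 0.05 kb from a start (chr2:105513509-105514815) with 8, 8 and 9. The remaining named regions, in Tmem63b, Tcf4, Thap8, 1190007F08Rik, Gm608, Lasp1 and Bcar3 and near Zmiz1 and Gm15800, had 7 to 16 fragments. None of the 15 ranked regions overlapped a peak of the other 6 libraries, as the rule required.

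**Figure D2:**
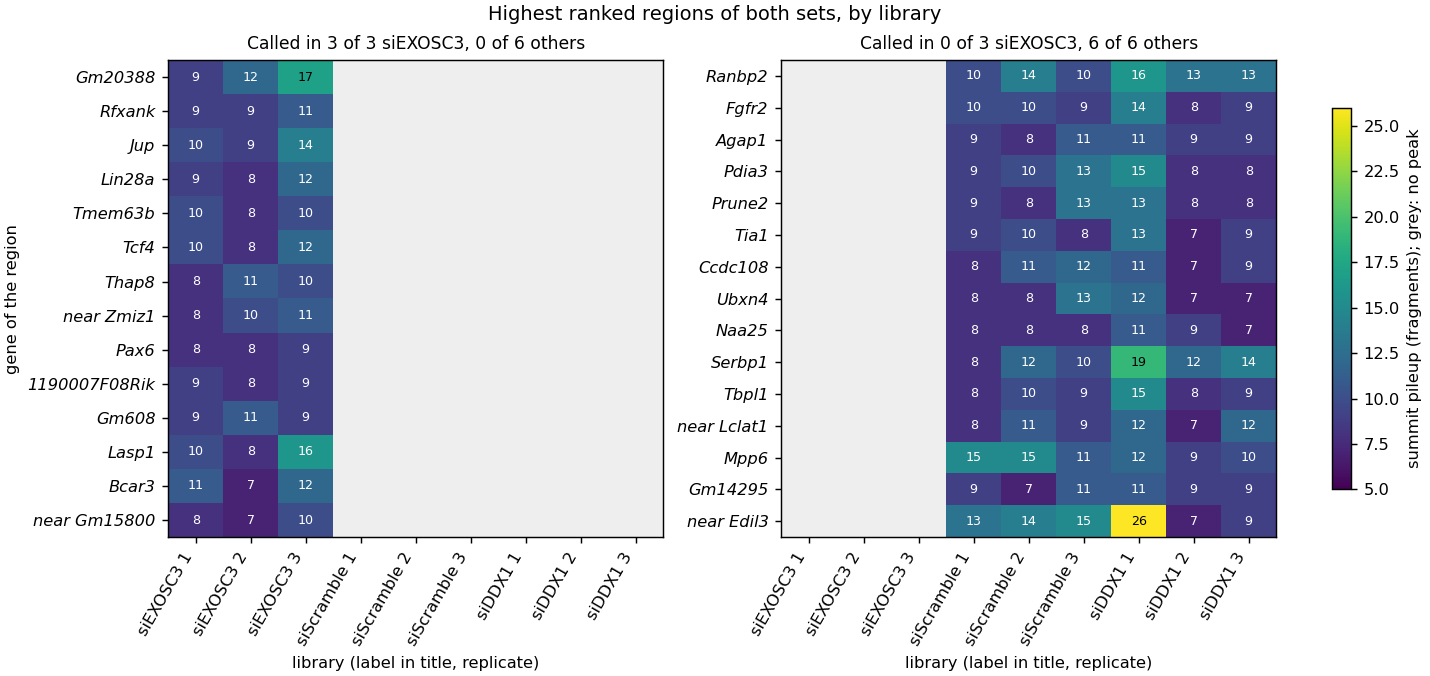
Summit pileup in fragments (colour and number) of the highest ranked regions of each set, 14 siEXOSC3-only and 15 siEXOSC3-absent (y axis, by gene, with "near" for regions outside genes) in each of the 9 untreated libraries (x axis), with grey where no peak was called. The siEXOSC3-only regions on the left hold 7 to 17 fragments in 3 libraries, and the siEXOSC3-absent regions on the right hold 7 to 26 fragments in 6 libraries.

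At equal peak numbers, all 15 ranked regions were also siEXOSC3-only. When peaks up to 1000 bases apart were merged, 8 of the 15 stayed siEXOSC3-only. With at least 50% of the region covered 9 did, and with restriction fragments as units 6. Of the 15 ranked siEXOSC3-absent regions, 15 stayed at equal peak numbers, and 9, 5 and 10 under these other settings. The ranking made at equal peak numbers held regions with a GC content from 47.5% to 74.8%, and the 2 highest were promoters. A region at the start of Bend4 (chr5:67818276-67819431) had a GC content of 74.8% and 10, 10 and 14 fragments. Grsf1, an RNA-binding protein of mitochondrial RNA granules, had a region 0.116 kb from a start with a GC content of 70.1% and 10, 9 and 12 fragments. Myo1c, an unconventional myosin, had 11, 9 and 13 fragments 0.13 kb from a start, and Clstn1, the cell adhesion protein calsyntenin, had 8, 9 and 12. Nr3c1, the glucocorticoid receptor gene, held 2 such regions near its starts, with 8, 9 and 15 and with 8, 9 and 20 fragments. Among siEXOSC3-absent regions at equal peak numbers, the first lay at a start of Pla2g2e, a secreted phospholipase, with 13, 15 and 13 fragments in siScramble and 20, 10 and 10 in siDDX1. Canx, the chaperone calnexin of the endoplasmic reticulum, had an intronic region with 10, 16 and 12 and then 16, 9 and 13. The regions named in this paragraph at Bend4, Grsf1, Myo1c, Clstn1, Nr3c1, Pla2g2e and Canx were not among the 15 ranked from all peaks. Their lowest −log10 q was nevertheless above that of the last ranked regions there, 4.11 near Gm15800 and 3.77 near Edil3. In the full lists, their merged regions therefore held a peak of at least 1 library counted here as without a call.

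Among the siEXOSC3-absent regions, the first was an exon of Ranbp2 (chr10:57940801-57943702), a nucleoporin of the cytoplasmic face of the pore. Its summit pileups were 10, 14 and 10 fragments in siScramble and 16, 13 and 13 in siDDX1 replicates 1 to 3. A region that spans parts of Fgfr2, a fibroblast growth factor receptor, and Nsmce4a (chr7:137683652-137687930) had 10, 10 and 9 in siScramble and 14, 8 and 9 in siDDX1. The Agap1 region (chr1:91704546-91706843), in an intron of a gene for a regulator of Arf GTPases, had 9, 8 and 11 and then 11, 9 and 9. siDDX1 replicate 1, the deepest library, was highest or tied for highest in all of these. Serbp1, an mRNA-binding protein, had an exonic region with 8, 12 and 10 fragments in siScramble and 19, 12 and 14 in siDDX1. Pdia3, a disulfide isomerase of the endoplasmic reticulum, had an intronic region with 9, 10 and 13 and then 15, 8 and 8. Tia1, an RNA-binding protein of stress granules, had 9, 10 and 8 and then 13, 7 and 9. The other named regions, in Prune2, Ccdc108, Ubxn4, Naa25, Tbpl1, Mpp6 and Gm14295 and near Lclat1 and Edil3, had 7 to 26 fragments. The gene Mpp6 is not that of the exosome cofactor protein MPP6, for which the study gives the gene name Mphosph6.

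Some genes held several members. Tnrc18 held 6 siEXOSC3-only regions of 17 regions in all and no region called in 9 of 9 libraries. Their midpoints lay 0.119 to 11.5 kb from an annotated start, and the only one called in all 3 libraries had 6, 7 and 9 fragments. Nbeal2, which is needed for platelet granules, held 4 of 8, and 3 of these 4 lay near a start. All 3 regions of Celsr2, a cadherin of planar cell polarity, were siEXOSC3-only, each called in 2 of the 3 libraries with 5 to 9 fragments. Hdac7, a histone deacetylase, held 3, among them a region 0.01 kb from a start with a GC content of 74.7% and 7 and 8 fragments in replicates 2 and 3. The locus Gm20388 held 14 siEXOSC3-only and 5 siEXOSC3-absent regions among 681. Over all 69497 regions the shares were 1.66% and 0.879%, and the part of region number in the counts per gene was not tested.

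Genes with at least 4 siEXOSC3-absent regions, Gm20388 aside, ranged from 37.4 kb (Dnajc7) to 740 kb (Odz4). Agap1, of 440 kb, held 8 of its 156 regions in this set, and all 8 were intronic. Alk, a receptor tyrosine kinase that is mutated in part of neuroblastomas, spans 734 kb and held 5 of 97. All 5 were intronic, 6.43 to 303 kb from a start. One of them (chr17:72229134-72230772) had 13, 10 and 11 fragments in siScramble and 22 and 9 in siDDX1 replicates 1 and 2, with no peak in replicate 3. Magi1, a scaffold protein of cell junctions, held 5 of 90, and Odz4, a teneurin of neuronal adhesion, held 4 of 121. Ankrd11, Atg2b, Dnajc7 and Snd1 held 4 each, and 3 of those in Snd1 also overlapped Lrrc4. Only Snd1 of these 8 genes also held a siEXOSC3-only region, 1 of 99. Over all regions, 0.879% were siEXOSC3-absent. The median gene with a region was 22.1 kb long, and the part of gene length in these counts was not tested.

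Gene groups were read against all 10997 protein-coding genes with a region, of which 919 (8.36%) held a siEXOSC3-only and 481 (4.37%) a siEXOSC3-absent region. For the exosome itself the counts were small. Of 11 genes of exosome core subunits with a region, 1 (9.09%) held a siEXOSC3-only region, Exosc7, near a start with 8 and 6 fragments in replicates 1 and 3, and 0 held a siEXOSC3-absent region. Of 18 genes of nuclear exosome cofactors, 3 held a siEXOSC3-only region. These were 1200014J11Rik, Zc3h3 and Zcchc8, the scaffold of the complex that targets the exosome to nuclear RNA. Another 3 held a siEXOSC3-absent region, Ncbp1, a subunit of the nuclear cap-binding complex, Nvl and Zfc3h1, with 5 to 15 fragments. Of 30 genes of R-loop resolving factors, 0 held a siEXOSC3-only region and 1 a siEXOSC3-absent one, the helicase gene Ddx21, with 11 to 20 fragments in 4 libraries. Of 12 Integrator genes, whose complex cleaves small nuclear and enhancer RNA, Cpsf3l held siEXOSC3-only and Ints7 siEXOSC3-absent regions.

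Synaptic, ion channel and signalling genes held siEXOSC3-only regions at shares above that of all genes. Synaptic adhesion and scaffold genes did so in 9 of 36 (25%), namely Cntn3, Cntnap1, Csmd2, Dlg5, Lrfn1, Magi3, Ptprf, Ptprs and Shank1, and their median length was 112 kb. The Cntn3 region overlapped a peak in 3 of 3 RNase H libraries and the Csmd2 region in 2. In Magi3 the region near a start had 11, 8 and 12 fragments, in Shank1, a postsynaptic scaffold, 5, 12 and 10, and in Ptprs, a receptor phosphatase of synapses, 7, 8 and 7. Voltage-gated ion channel genes did so in 7 of 40 (17.5%), among them the potassium channel genes Kcnh2, Kcnh3, Kcnn1 and Kcnq1, and only Kcnj13 held a siEXOSC3-absent region. Wnt, Notch and BMP signalling genes did so in 7 of 46 (15.2%), Bambi, Bmp1, Fzd2, Mfng, Smad1, Smad6 and Smad9, and held 0 siEXOSC3-absent regions. At Bambi, the study shows higher R-loop signal after either depletion. A siEXOSC3-only region is by rule called in no siDDX1 library, and read by peak name it is called in neither depletion. Smad6, an inhibitor of BMP signals, had 7, 7 and 8 fragments, and Fzd2, a Wnt receptor, held 2 regions. The median length was 33.4 kb for the channel genes and 29.4 kb for the signalling genes, against 22.1 kb over all genes with a region. No test was made of these shares.

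Axon guidance genes stood above the background in both sets. Efna3, Nrp1, Plxna3, Plxnb1, Sema4a, Sema6b and Unc5c, 7 of 37 (18.9%), held siEXOSC3-only regions, and Neo1, Nrp2, Plxnc1, Sema4b, Sema6d and Unc5b, 6 of 37 (16.2%), held siEXOSC3-absent ones. Plxnb1, a semaphorin receptor, had its region 0.008 kb from a start with a GC content of 71.2% and 7, 8 and 8 fragments. Nrp2, a neuropilin coreceptor, had a siEXOSC3-absent exonic region with 9, 8 and 10 fragments in siScramble and 19 and 6 in siDDX1 replicates 1 and 3. Histone modifier genes likewise had 8 of 54 (14.8%) and 7 of 54 (13%). The median length was 45.1 kb for axon guidance and 43.9 kb for histone modifier genes, against 22.1 kb over all genes with a region. The median number of regions per gene was 4.5 and 9, against 4. The part of gene length and region number in these shares was not tested.

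Splicing and protein folding genes leaned the other way. Splicing factor and hnRNP genes held siEXOSC3-only regions in 1 of 63 (1.59%), Srsf4, and siEXOSC3-absent regions in 7 (11.1%), Celf4, Elavl4, Mbnl2, Ptbp2, Rbfox2, Sf3b3 and Tra2b. Celf4, a neuronal RNA-binding protein, held 3 of them. Protein folding and stress genes held them in 4 of 62 (6.45%) and 7 of 62 (11.3%), the latter including the chaperone genes Cct2, Hsp90b1 and Hspd1 and the heat shock factor gene Hsf2. In Hsp90b1 the region had 10, 9 and 14 fragments in siScramble and 17 and 8 in siDDX1 replicates 1 and 3. Ribosomal protein genes had 1 and 1 of 79, translation factor genes 2 and 2 of 60, double-strand break repair genes 2 and 1 of 37, and kinesin and dynein genes 2 and 4 of 51. Zinc finger Zfp genes had 19 and 6 of 243, immediate early genes 1 and 0 of 23, and neuroblastoma identity genes 0 and 1 of 16. Replication-dependent histone genes, 38 with a region, and 11 snoRNA hosts and nuclear noncoding RNAs held 0 of either.

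**Figure D3:**
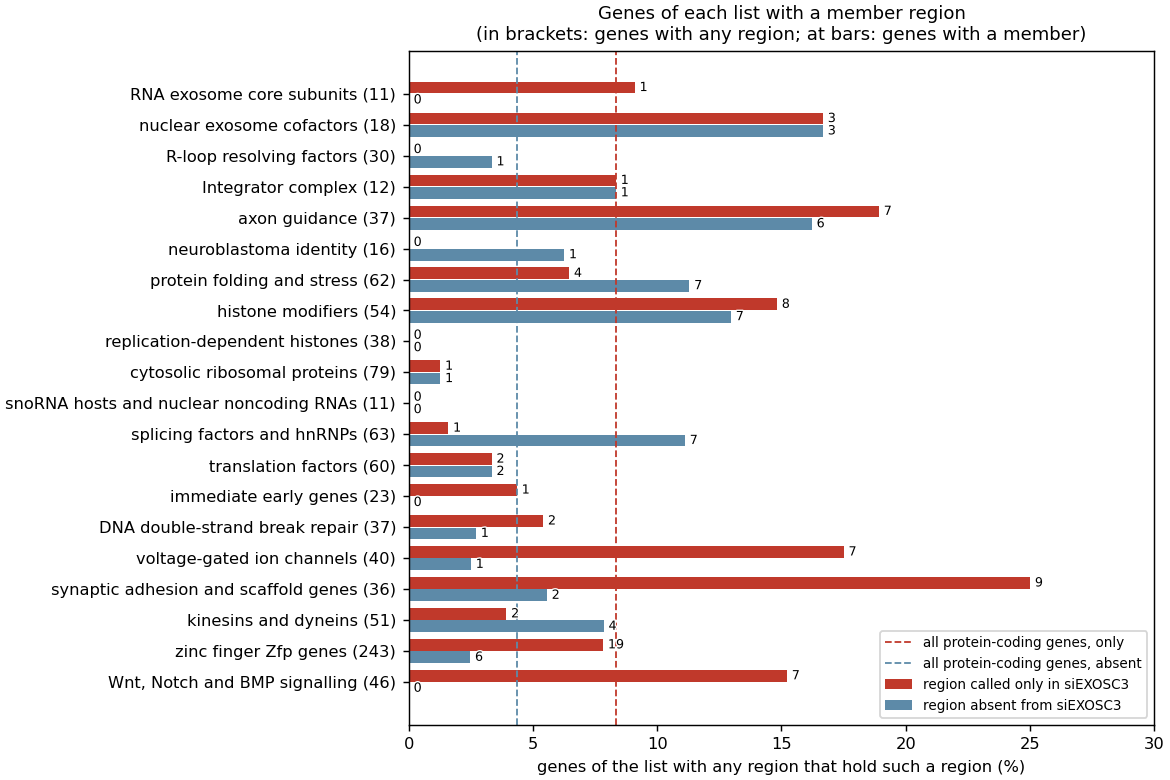
Percentage of the genes of each list with any region (x axis; y axis, lists with that number of genes in brackets) that held a siEXOSC3-only region (red) or a siEXOSC3-absent region (blue), with gene numbers at the bars and dashed lines for all protein-coding genes (8.36% and 4.37%). Synaptic adhesion genes have the longest red bar (25%), and splicing factors have 1 gene in red and 7 in blue.

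Over whole peak lists, the differences pointed the same way. With all peaks, the libraries overlapped between groups in the shares near a start and in introns and did not overlap in GC content. Peaks near a start made up 28.4%, 25.8% and 23.8% of the lists of siEXOSC3 replicates 1, 2 and 3. In the others they made up 25.5%, 22.3% and 20.9% (siScramble) and 22.5%, 24.1% and 22.9% (siDDX1). The means were 26% ± 2.30 (SD, n = 3) and 23.0% ± 1.60 (SD, n = 6), and the groups overlapped (exact permutation test, two-sided, p = 0.0952, adjusted over 8 measures 0.190). Intronic peaks made up 47.8% ± 2.87 (SD, n = 3) against 51.9% ± 2.23 (SD, n = 6; exact permutation p = 0.0714, adjusted 0.190). The mean GC content of peaks was 50.4%, 49.8% and 49.6% in siEXOSC3 and 48.4% to 49.4% in the others, without overlap. Its means were 49.9% ± 0.413 (SD, n = 3) and 48.8% ± 0.390 (SD, n = 6), and the exact permutation p of 0.0238 (adjusted 0.190) is the smallest that 84 assignments of 3 among 9 libraries allow. Peaks between genes made up 13.1% ± 0.768 (SD, n = 3) and 12.1% ± 0.484 (SD, n = 6; exact permutation p = 0.0714, adjusted 0.190).

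Taking 23882 peaks from each list narrowed the spread of the shares near a start and in introns and of GC content. Peaks near a start then made up 29.5%, 27.4% and 27.6% in siEXOSC3 and 24.0% to 26% in the 6 others. The means were 28.2% ± 1.15 (SD, n = 3) and 24.8% ± 0.858 (SD, n = 6). Intronic peaks made up 45.0% ± 1.05 (SD, n = 3) against 49.6% ± 1.08 (SD, n = 6). Mean GC content was 50.3% ± 0.247 (SD, n = 3) against 49.2% ± 0.139 (SD, n = 6). In each of these 3 measures all siEXOSC3 libraries lay outside the range of the others, with the smallest exact permutation p of 0.0238, adjusted 0.0556. Here p-values were adjusted over 7 measures, since peak number was fixed. No measure passed an adjusted p of 0.05, in either setting. With all peaks, covered length (32.8 against 33.7 Mb; exact permutation p = 1), median peak width (518 against 535.5 bases; exact permutation p = 0.5) and overlap with RNase H peaks of the same label (1.87% ± 0.463 against 1.96% ± 0.492, SD; exact permutation p = 0.905) gave no separation.

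**Figure D4:**
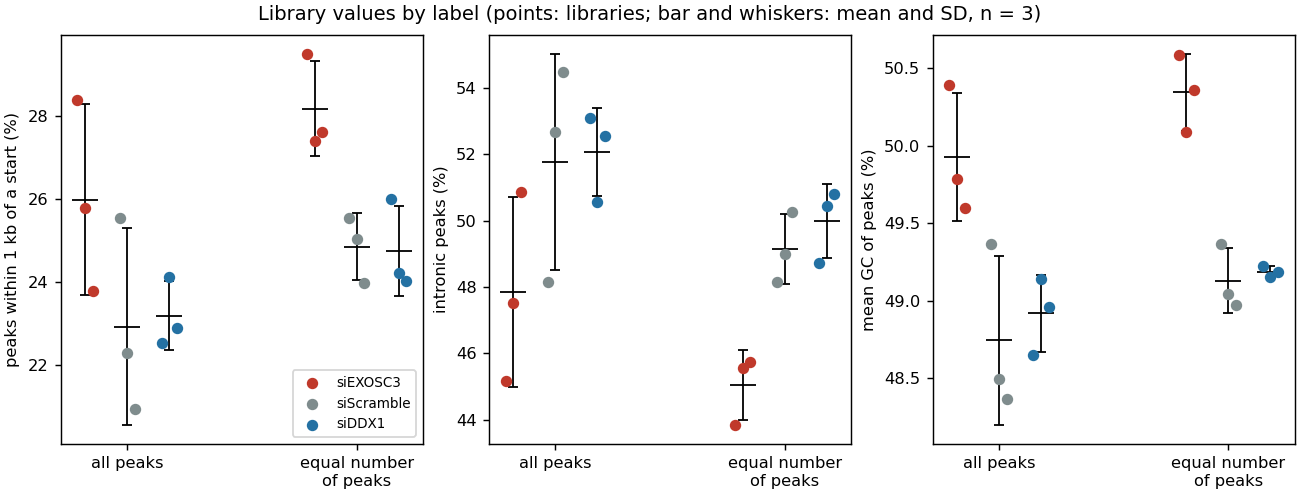
Share of peaks within 1 kb of a start, share of intronic peaks and mean GC content of peaks (y axes, percent) for each of the 9 libraries (points) by label, from all peaks and from an equal number of peaks (x axis), with mean and SD (bar and whiskers, n = 3). At equal numbers the 3 siEXOSC3 points lie above all others near a start (27.4% or more), below all others in introns and above all others in GC content. The y axes do not start at 0.

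Calls have only 2 states, so the fold enrichment of the highest peak was also compared in the 7460 regions called in 9 of 9 libraries, on a log2 scale centred on each library's median. limma called 77 regions at an adjusted p under 0.05, 39 higher (0.523%) and 38 lower (0.509%) in siEXOSC3 than the mean of the other labels. At an unadjusted p under 0.05, 619 were higher and 676 lower. The same contrast for the other labels called 6 regions for siScramble (0.0804%) and 5 for siDDX1 (0.067%). Without the centring, limma called 8 higher and 1 lower, and the median log2 difference over all regions was 0.14. Why fewer were called higher was not tested. Changes are therefore relative to each library's median. With the mean over a region's peaks in place of the highest, 17 were higher and 5 lower. The number called was 6, 13 and 51 without siEXOSC3 replicate 1, 2 or 3, 23 and 27 without siScramble replicate 2 or 3, and 134, 27 and 39 without siDDX1 replicate 1, 2 or 3.

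Regions higher in siEXOSC3 were mostly promoters. Of the 39, 25 lay near a start, where 33.7% of the 7460 regions tested lay. Their median GC content was 56.1%, against 50.7% over the regions tested. In 36 the 3 siEXOSC3 values did not overlap the other 6. Plxna1, a semaphorin receptor, had an intronic region (chr6:89308950-89313602) with fold enrichments of 19.3, 13.5 and 28.3 in siEXOSC3 and 6.44 to 9.60 in the others. Its log2 difference was 1.08 (SE 0.188, limma adjusted p = 0.00693). Ints6, an Integrator subunit, had 26.1, 25.1 and 28.3 at its promoter (chr14:63378234-63381200) and 8.02 to 16.9 in the others (log2 difference 0.97, limma adjusted p = 0.0120). The study uses Ints6 as an example of a changed R-loop region with reduced expression upon depletion of EXOSC3 or DDX1, without coordinates in its text. Read by peak name, the 3 libraries that were higher here are the scramble control. Nfkbia, the inhibitor of NF-κB, had 24.6, 22.1 and 25.9 at its promoter against 9.85 to 13.8 (log2 difference 0.95). At Nelf, the older symbol of a gene for a neuronal migration factor and no subunit of the elongation factor of that name, the log2 difference was 1.06. The log2 difference was 0.97 at St3gal4, a sialyltransferase, 0.93 at Sik3, a salt-inducible kinase, and 0.89 at Irs2, an insulin receptor substrate. At Prtg, a cell surface protein of the neural tube, it was 0.85. By the mean over the region's peaks, the Irs2 difference was 0.00889 (limma adjusted p = 0.99). Zfp592 had a log2 difference of 1.00, and it also held a siEXOSC3-only region. A region of low GC content (35.2%), 985 kb from the nearest protein-coding gene Acvr2a, was higher by 0.90 on the log2 scale.

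Regions lower in siEXOSC3 were spread over all classes. Of the 38, 11 lay near a start, 16 in introns and 8 between genes, where 33.7%, 40.0% and 10.1% of the regions tested lay. Their median GC content was 44.9%. In 33 the groups did not overlap. The lowest p belonged to a region 39.6 kb from Thap1, with fold enrichments of 8.20, 5.80 and 12.3 in siEXOSC3 and 12.8 to 27.3 in the others (log2 difference −1.32, limma adjusted p = 0.00034). Hbs1l, a ribosome rescue factor, had an intronic region with 6.83, 7.58 and 8.15 against 10.5 to 24.0 (log2 difference −1.07, limma adjusted p = 0.00693). Odz4, with 4 siEXOSC3-absent regions, also had a region near a start with 4.97, 6.12 and 6.95 against 7.38 to 14 (log2 difference −0.98, limma adjusted p = 0.0115). Other lower regions lay at Etv5, an ETS transcription factor, at Aldh1l2, a mitochondrial folate enzyme, and at Cstb, a protease inhibitor. Further ones lay at Glipr1l1 and at Cct4, a subunit of the chaperonin TRiC. The log2 differences of these 5 genes ranged from −0.98 to −0.89. The last of the 10 lay 165 kb from Oxsm and 1 lay near Trcg1.

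Of the gene groups, Integrator regions had 2 of 9 called higher by limma, at Ints6 and at a region shared by Cpsf3l and its neighbours. The median GC content of these 9 regions was 54.8%, against 50.7% over all regions tested. The Ints6 difference missed the threshold after GC correction (0.73, limma adjusted p = 0.0778) and without siEXOSC3 replicate 1 (limma adjusted p = 0.0876) or 2 (limma adjusted p = 0.0581). Axon guidance had Plxna1 higher and Unc5b lower among 45 regions. At an unadjusted limma p under 0.05, 619 of all 7460 regions were higher and 676 lower. Protein folding had Hspa5 and Cct4 lower and none higher among 70, and unadjusted 13 were lower and 1 higher. Ribosomal protein genes had 1 lower among 88, at Rpl37, and 15 lower and 0 higher unadjusted. Splicing factors had 1 lower among 101, Srsf10, and 12 higher and 11 lower unadjusted. The median GC content was 48.4% for protein folding, 49.4% for ribosomal protein genes and 49.2% for splicing factors, and its part in these counts was not tested. Among neuroblastoma identity genes, 1 of 18 was higher, a region shared by Phox2a and Inppl1. Exosome core subunits had 0 of 10 called by limma (1 higher and 3 lower unadjusted), cofactors 0 of 22 (1 and 3) and R-loop resolving factors 0 of 27 (2 and 1).

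The difference followed GC content across the shared regions. In the 1865 regions of lowest GC content (median 44.5%), the median log2 difference was −0.19, and limma called 3 higher and 28 lower. In the next 2 groups of 1865 regions it was −0.06 and 0.05. In the 1865 regions of highest GC content (median 56.6%) it was 0.17, with 25 called higher and 1 lower. In the lowest group the siEXOSC3 libraries had medians of −0.30, −0.22 and −0.25 relative to the library median, against −0.13 to −0.01 in the others. In the highest group they had 0.25, 0.20 and 0.28, against 0.00 to 0.15, and siDDX1 replicate 1 was the highest of the others. Across the 7460 regions, which share their libraries and are not independent replicates, Pearson's r between GC content and the log2 difference was 0.449 and Spearman's rho 0.466.

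After each library was corrected for GC content, a choice made after seeing the data, limma called 23 regions, 10 higher and 13 lower, of which 19 were among the 77. Near a start 3 were then higher and 6 lower, against 25 and 11 before. In introns 5 were higher and 4 lower, against 8 and 16. The region near Thap1 kept a log2 difference of −1.22 (limma adjusted p = 0.00065).

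**Figure D5:**
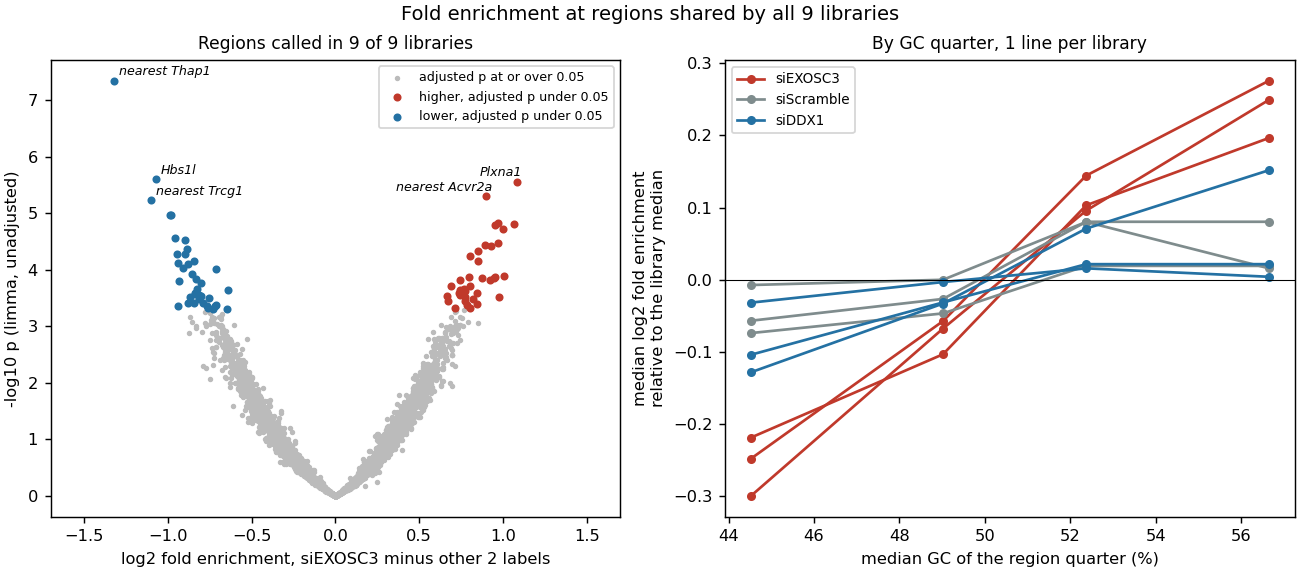
Left, log2 difference in fold enrichment (x axis, siEXOSC3 minus the mean of the other labels) and −log10 of the unadjusted limma p (y axis) for the 7460 regions called in 9 of 9 libraries, with the 39 higher regions in red and the 38 lower in blue. Right, median log2 fold enrichment relative to the library median (y axis) in 4 groups of regions by GC content (x axis, percent), 1 line per library: the 3 siEXOSC3 lines are lowest at 44.5% GC and highest at 56.6%.

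By chromosome, without a test, siEXOSC3-only regions per 100 regions ranged over the autosomes from 0.917 on chromosome 18 and 0.922 on chromosome 13 to 2.31 on chromosome 9 and 2.44 on chromosome 17. Chromosomes 6 and 1 held 1.42 and 1.23 siEXOSC3-absent regions per 100, and chromosomes 7 and 9 held 0.515 and 0.547.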

How the data were processed

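Untreated DRIP-seq libraries of N2a cells were compared, 3 per label, grouped by title. Per the study's methods and the submitters' processing notes, the authors aligned reads with Bowtie2 2.4.4 to mm9 and called peaks per library against input with MACS2 2.2.6. The deposited lists give fold enrichment as a ratio, and −log10 p and −log10 q, with a lowest −log10 q of 2.00. The deposited display score, 10 times the −log10 q as the authors' peak caller wrote it, was not used. Read counts and total depths were not used here. Summit pileups and relative depth were recovered from fold enrichment and −log10 p, with a tolerance of 0.003, and gave whole pileups in 99.9958% to 100% of peaks per library.

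Peaks that overlapped were merged into regions and annotated by midpoint with the GENCODE annotation of mm9, in the order start (within 1000 bases), exon, intron, between genes. Library values were compared by exact permutation, with Benjamini-Hochberg adjustment over 8 measures, or 7 at equal peak numbers. Regions called in 9 of 9 libraries were compared with limma 3.58.1 (R 4.3.3), with group means and a threshold of 0.05. Python 3.11.15, numpy 2.4.6 and scipy 1.17.1 were used, and the code was tested on simulated data. Named regions were the first 15 called in all libraries of one side, by lowest percentile of −log10 q, the 10 with the lowest limma p per direction, genes with at least 4 members, and members in 20 gene lists. A few items are not reported here. Further genes with 3 members were named after their values were seen. Members and lists were chosen with earlier results of these data known. Alternatives were a stricter −log10 q, merging over 1000 bases, restriction fragments, 50% coverage, other normalizations, a replicate block and leaving out each library.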

Additional observations from a re-analysis of the deposited data

Results flagged for a closer look

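Of 36 values tested for a library far from the rest of its group, 2 stood apart, where chance gives about 1 in 20. The relative depth of siDDX1 replicate 1 was 1.86, against 0.785 to 1.02 in the other 5 libraries not labelled siEXOSC3. At the Zfp592 region, which was higher in siEXOSC3, the log2 fold enrichment relative to the library median was −1.04 in siDDX1 replicate 1, against −0.586 to −0.393 in the other 5.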

How the results depend on the processing

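With −log10 q of at least 5, siEXOSC3-only regions numbered 736 and siEXOSC3-absent regions 318. Merging peaks up to 1000 bases apart gave 629 siEXOSC3-only regions, and restriction fragments as units gave 974 siEXOSC3-absent ones. Leaving out 1 library gave 327 to 1706 and 164 to 1655. The share of siEXOSC3-only regions near a start was 32.7% at equal peak numbers, 33.2% at −log10 q of at least 5 and 26% to 34.6% without 1 library. Their intergenic share was 17.2% with merging over 1000 bases and 14.2% to 16.3% without 1 library. The share of siEXOSC3-absent regions near a start was 15% where at least 50% of the region had to be covered, 15.6% with restriction fragments and 7.87% to 12.7% without 1 library, and their intergenic share was 7.93% to 11.1%. The cause of these shifts was not tested.

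Without 1 library, the difference of siEXOSC3 from the other 6 ranged from −4098 to 3492 in peak number, −4.31 to 1.46 Mb in covered length, −30 to 2 bases in peak width and −0.248 to 0.176 percentage points in RNase H overlap, each with both signs. It ranged from 1.74 to 4.03 points near a start, −5.59 to −2.74 in introns, 0.621 to 1.39 between genes and 0.861 to 1.26 in GC content.

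limma called 9 regions without centring, 23 of 2734 at most 3000 bases wide, 22 by the mean over peaks, and 6 to 134 without 1 library. With choices made after seeing the data, it called 203 by pileup over background, 23 after GC correction and 39 after GC correction with the replicate block. The methods describe no pairing by replicate number, so the numbers were not taken as pairs. After group means were subtracted, same-numbered replicates of different labels correlated from −0.121 to 0.105 (9 pairs). Replicates with other numbers correlated from −0.194 to 0.153 (18 pairs). The replicate block gave 107 calls, 56 higher and 51 lower, and kept all 77. Within the block, 27 assignments allow no p below 0.0741, which GC content, start, intron and intergenic shares reached in the exact permutation test (adjusted 0.148).

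Of the 20 shared regions named, all 20 kept their call under quantile normalization, the block and the 6 others as 1 group, 13 did after GC correction, 7 by the mean over peaks and 5 without centring. Of the 20, 3 kept it without siEXOSC3 replicate 1, 8 without replicate 2 and 14 without replicate 3. Weak peaks, with 5 to 7 fragments at the lowest summit of a list, limit every call of absence.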
